A study of Mus musculus with 15 samples.

Results

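Genes of the unfolded protein response and the integrated stress response were followed across 5 groups of mouse livers. The 10 genes were the sensors Ern1, Eif2ak3 and Atf6, the transcription factors Xbp1, Atf4, Ddit3 and Atf3, and the target genes Trib3, Asns and Ppp1r15a. Every probe set annotated to one of these symbols was taken, which gave 21 probe sets for 10 genes, out of 12393 genes that had a probe set of their own on the array. Liver RNA of 15 mice, labelled as males 3 months old and as 3 biological replicates per group, had been hybridised to Affymetrix mouse arrays. Z-on mice (titled Z4) expressed the mutant Z form of human alpha1-antitrypsin and M-on mice (M4) its wild type M form, both without doxycycline. Z-off (Z1) and M-off (M1) mice carried the same transgenes, kept silent by doxycycline at 40 µg per mL in the drinking water from conception. The WT mice were littermates without a transgene, without the drug and without the human protein. The transgenes were inducible and specific to hepatocytes per the labels; the promoter and the number of founder lines are not stated there. Because the drug silences the transgene, the on and off groups differ both in the human protein and in doxycycline, and these cannot be told apart in a comparison of on with off.

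The endoplasmic reticulum (ER) folds secreted proteins, of which the hepatocyte makes very large amounts, alpha1-antitrypsin among them. A set of membrane sensors responds to unfolded protein there. Ern1 encodes IRE1, whose RNase splices the Xbp1 message into a form that encodes an active transcription factor. Eif2ak3 encodes PERK, which phosphorylates eIF2 and so slows general translation while the Atf4 message is translated more, and Atf6 encodes a factor released by proteolysis. PERK shares eIF2 with the kinases GCN2, PKR and HRI, which answer amino acid shortage, double-stranded RNA and heme shortage, and this common arm is called the integrated stress response. Splicing, phosphorylation and cleavage are not seen in the total level of a message, so these arrays report only the RNA output of the pathway.

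Values are linear probe set signals, and all arrays shared nearly the same trimmed mean. Several features of the arrays bear on what follows. The spiked poly-A control probe sets had a median of 1.8 to 3.6 on the 6 Z-on and M-on arrays and 33.8 to 52.1 on the other 9, and the 5′ probe set of 18S rRNA read 1830 to 2680.7 against 75 to 568.1, so whatever sets these readings separated on-arrays from all others and cannot be told apart from the transgene being on. The median signal was 43.9 to 54.9 on on-arrays, 30.2 to 32 on off-arrays and 42.2 to 44.8 on WT arrays. Although all mice were labelled male, the female-specific RNA Xist read 1149.2, 226 and 32.6 on the M-on arrays 1, 2 and 3, against 13.7 to 74.3 on the other 12 arrays, while the Y-linked Eif2s3y read 0.4, 1.3 and 42.1 against 105.3 to 437.6. M-on results are therefore also given without M-on 1 and 2, which leaves a lone M-on array that is assumed to vary like the other groups. The 5 hepatocyte markers summed to 51755 to 59304 on the WT arrays and 30408 to 40412 on the 12 transgenic arrays. Their sum thus moved with every comparison against littermates. Alb, Apoa1, Ttr and Cps1 each had their highest group mean in WT, but Tat did not. Its mean was 3301.5 in WT, and its transgenic group means ranged from 2932.7 (M-on) to 3309.5 (Z-off). None of the 5 markers was called between on and off in either line. Of the 5 Kupffer cell markers 3 were higher in M-on than M-off (summed signal 1518.6 to 1787.6 against 832.2 to 921.1), as were 3 of 5 for sinusoidal endothelium, 3 of 4 for lymphocytes and 2 of 5 for stellate cells, where 33.2% of all probe sets were higher. In Z-on against Z-off, 4 of 5 stellate cell markers (1432.1 to 1527.1 against 853.1 to 888), 1 of 5 for endothelium, 1 of 4 for lymphocytes and 0 for Kupffer cells were higher by limma, where 27.9% of all probe sets were. The part of these cell types in the results was not tested, and in whole liver a change in the number of cells of a type and a change in RNA per cell cannot be told apart.

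**Figure D1:**
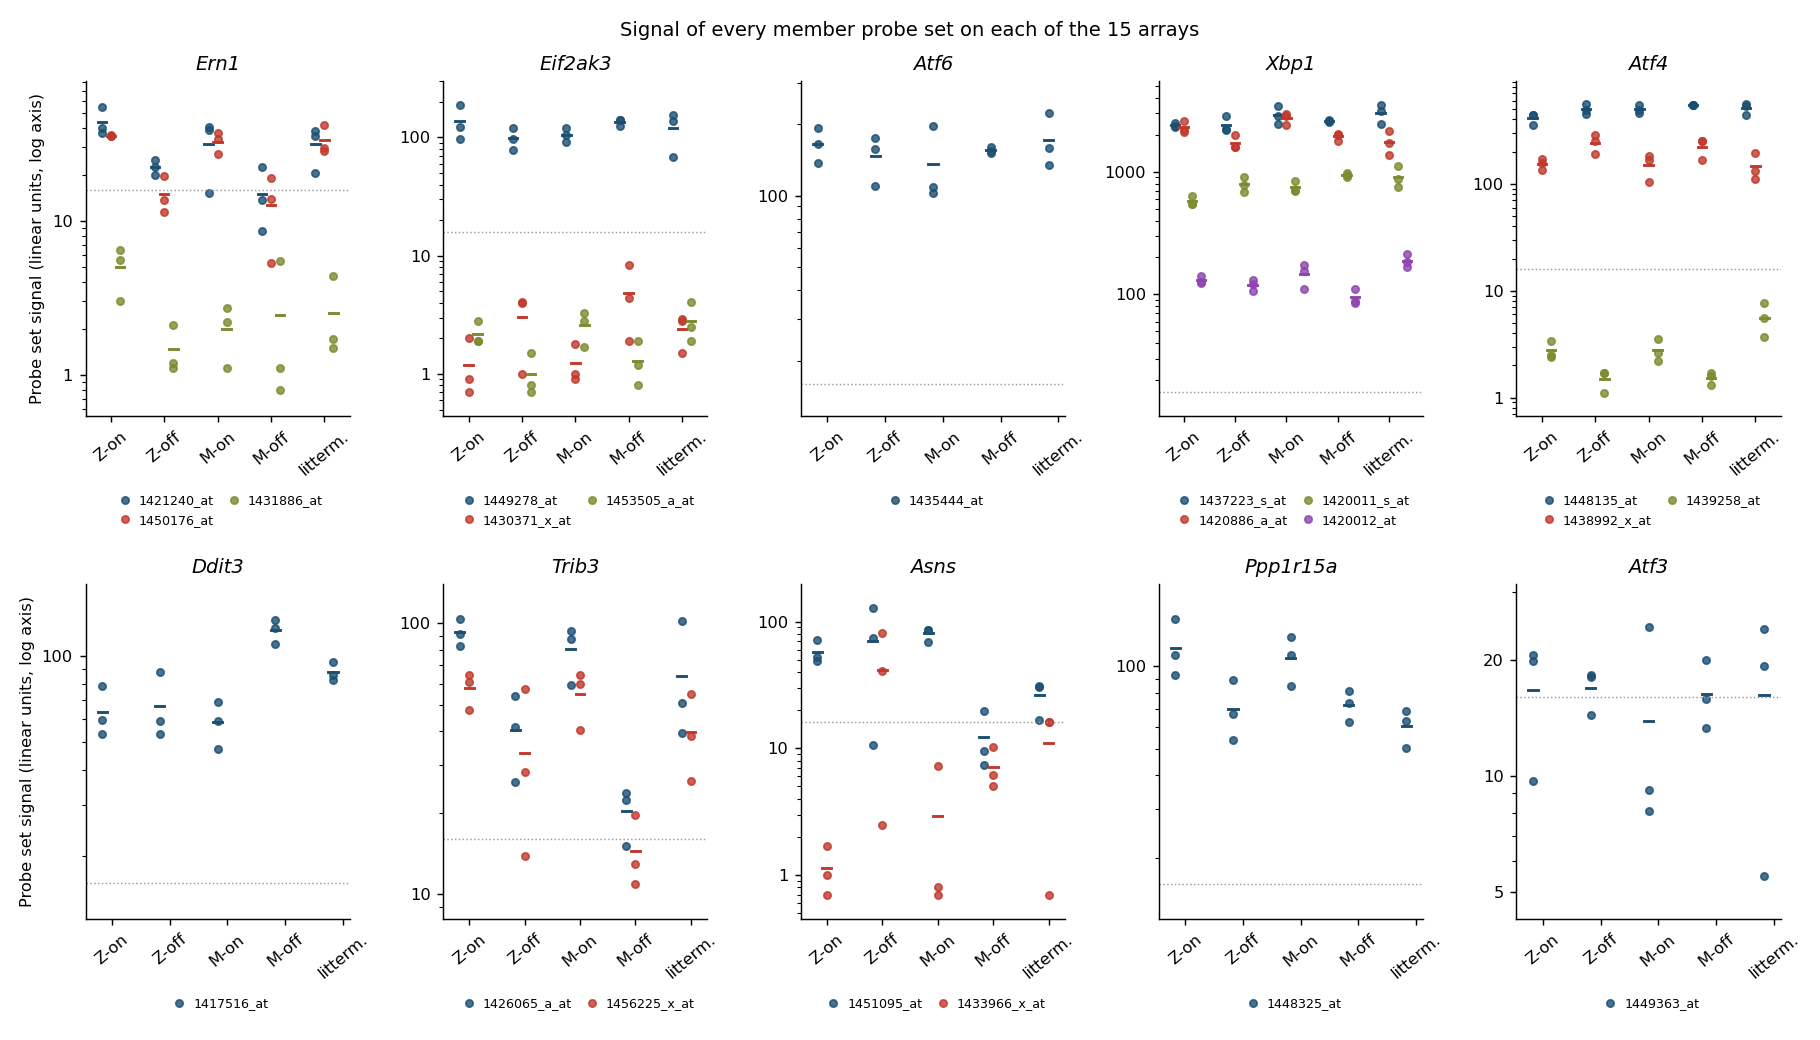
Signal of the 21 probe sets, 1 panel per gene, in the 5 groups (litterm., WT littermates). Points are single arrays, short bars are means of 3 arrays, colours are probe sets, the y axis is logarithmic and the dotted line marks the constant of 16 that was added before taking log2. Trib3 lies lowest in M-off, Ddit3 lies highest in M-off, and Asns is split among the Z-off arrays.

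The genes fell into groups that behaved differently. Trib3 RNA was higher with the transgene on than off in both lines, by 1 of its 2 probe sets in Z and by both in M. Ern1 RNA was higher in both lines by 1 of its 3 probe sets. Neither gene was called between an on group and littermates. Against littermates Ern1 was called lower in both off groups, which received doxycycline, and Trib3 in M-off. Ppp1r15a RNA was above that of littermates in both lines. Of these calls, quantile normalization kept only that of Trib3 1426065_a_at in M. Ddit3, which encodes the pro-apoptotic factor CHOP, was lower with M on than with M off and did not pass the test in the Z line. No member was called between livers that expressed Z and livers that expressed M. Eif2ak3, Atf6 and Atf3, and all 3 probe sets of Atf4, passed the test in none of the 9 contrasts.

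Among the sensors, only Ern1 was called in any contrast. Its probe set 1450176_at read 36.1, 35.7 and 35.4 in Z-on, 13.6, 11.5 and 19.6 in Z-off, 37.3, 27.1 and 33.9 in M-on, 13.8, 19.1 and 5.3 in M-off, and 42.3, 28.3 and 29.7 in WT. The off arrays of both lines thus lay below every on array and every WT array, while on and WT arrays overlapped. The log2 change of signal plus 16 was 0.75 (SE 0.18, adjusted p = 0.00527 by limma) for Z-on minus Z-off and 0.79 (SE 0.18, adjusted p = 0.00282) for M-on minus M-off. A separate Ern1 probe set, 1421240_at, read 40.4, 37.3 and 54.7 in Z-on, 22.5, 19.9 and 25 in Z-off, 38.9, 15.2 and 41 in M-on, 8.6, 22.3 and 13.7 in M-off, and 20.4, 35.7 and 38.6 in WT. Its Z-on arrays lay above its Z-off arrays, but neither change passed the test (log2 change 0.64, adjusted p = 0.051 in Z; 0.60, adjusted p = 0.0523 in M). The remaining Ern1 probe set, 1431886_at, stayed under the constant of 16 on all arrays.

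Eif2ak3, the PERK gene, was read by probe set 1449278_at at 123.1, 98 and 189 in Z-on, 119.7, 78.9 and 96.8 in Z-off, 119.5, 91.4 and 105.5 in M-on, 124.5, 141.2 and 140.6 in M-off, and 68.9, 154.1 and 137.3 in WT. Z-on and Z-off overlapped, while the 3 M-on arrays lay below the 3 M-off arrays. The log2 changes were 0.39 (95% interval -0.16 to 0.93) for Z on against off and -0.32 (-0.87 to 0.22) for M. Both other Eif2ak3 probe sets stayed below 16 on all arrays. Atf6 read 164.8, 137 and 194 in Z-on, 157.1, 174.9 and 110.2 in Z-off, 196.9, 102.9 and 109 in M-on, 161.3, 153.7 and 151.3 in M-off, and 135, 158.8 and 222.9 in WT. All 5 groups of Atf6 overlapped with at least 1 other, and the on-off changes were 0.16 (-0.35 to 0.66) in Z and -0.22 (-0.73 to 0.28) in M. None of these changes passed the test, which does not show that PERK and ATF6 message levels were the same.

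Xbp1, the factor downstream of IRE1, gave no single answer, because its 4 probe sets went different ways. Probe set 1420886_a_at read 2091.8, 2195.2 and 2604.7 in Z-on, 1602.7, 1577.3 and 1988.4 in Z-off, 2957.9, 2386.4 and 2851.8 in M-on, 1997.3, 2045.3 and 1769.8 in M-off, and 1706.1, 2138.2 and 1375.2 in WT. On arrays lay above off arrays in both lines, by 0.41 on the log2 scale in Z (SE 0.17, adjusted p = 0.0693) and 0.49 in M (SE 0.17, adjusted p = 0.0281), so it rose in M only by the threshold. Probe set 1420011_s_at read 540.3, 547.7 and 636.7 in Z-on, 779.5, 683.5 and 907.7 in Z-off, 714, 696.8 and 834 in M-on, 902.6, 979.8 and 940.2 in M-off, and 875.3, 1109.8 and 744.1 in WT. Here on arrays lay below off arrays in both lines, and it fell by 0.44 in Z (SE 0.16, adjusted p = 0.0394), with -0.33 in M (adjusted p = 0.1). Probe set 1420012_at read 125, 123.3 and 142.2 in Z-on, 130.9, 106.8 and 122.5 in Z-off, 111.1, 155.1 and 175 in M-on, 110.8, 88.6 and 84.9 in M-off, and 182.3, 211.5 and 168 in WT. Its mean was lowest in M-off, and it rose by 0.54 with M on (SE 0.16, adjusted p = 0.013), while Z on and off overlapped. The last one, 1437223_s_at, ranged from 2180.8 to 3488.1 over the 15 arrays and passed the test in no contrast. In Affymetrix names the endings _s_at, _a_at and _x_at mark probe sets that can read several transcripts or cross-hybridise, and the labels do not say which Xbp1 transcript each probe set reads.

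Atf4, the transcription factor of the integrated stress response, whose protein is controlled mainly by translation, read 436.8, 356.6 and 440.4 in Z-on, 557.4, 454.5 and 490.7 in Z-off, 543.9, 495 and 461.3 in M-on, 544, 552 and 542.2 in M-off, and 558.6, 444.1 and 535.8 in WT with probe set 1448135_at. The 3 Z-on arrays were the lowest of all but did not pass the test against Z-off (log2 change -0.28, 95% interval -0.56 to 0.01, adjusted p = 0.121). Probe set 1438992_x_at read 133.4, 156.8 and 172.2 in Z-on and 252.1, 189.7 and 284.5 in Z-off, a difference of -0.59 that missed the threshold (adjusted p = 0.0668), and gave -0.53 in M (adjusted p = 0.0824). The Atf4 probe set 1439258_at stayed below 16 on all arrays.

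Ddit3 encodes CHOP, a factor induced late in ER stress and tied to cell death. It read 53.2, 59.5 and 78.2 in Z-on, 87.6, 53.1 and 59.3 in Z-off, 47.3, 68.9 and 59.3 in M-on, 110.2, 133.9 and 125 in M-off, and 82.3, 95.3 and 85.5 in WT. M-off was the highest group, with all 3 arrays above every other array, WT had the next highest mean and overlapped with Z-off, and the arrays of Z-off, Z-on and M-on overlapped. Ddit3 fell by 0.91 with M on (SE 0.17, 95% interval -1.28 to -0.54, adjusted p = 0.00081), and relative to the median change of all probe sets the fall was larger, -1.13. In Z the change was -0.04 (-0.41 to 0.33, adjusted p = 0.869). The difference between the Z and M on-off changes was 0.86 (SE 0.24, 95% interval 0.34 to 1.39), with an adjusted p of 0.136, so it was not called. Against littermates, Ddit3 gave -0.39 for Z-on, -0.49 for M-on, -0.35 for Z-off and 0.42 for M-off, with adjusted p-values of 0.162, 0.0571, 0.169 and 0.0935, none of them called.

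The ATF4 and CHOP factors bind, with C/EBP partners, a short element whose core TGATGNAA was searched on both strands of the 250 bases before the start of each gene in RefSeq's promoter table (build GRCm38.p6), in which 9 of the 10 genes were found. The cyclic AMP response element TGACGTCA, bound by the ATF and CREB factors, the UPR element TGACGTGG, the ER stress response element (CCAAT, 9 bases, CCACG) and its variant (ATTGG, 1 base, CCACG) were searched in the same windows; no match overlapped another. The core was found in Asns and Atf3 and the cyclic AMP element in Ppp1r15a, and no searched motif was found in the other 6. Of 32851 promoters in the table, 3.45% held the core, 1.55% the cyclic AMP element, 0.563% the UPR element, 0.113% the ER stress element and 0.0304% its variant. The 130 bases before the start of these genes are shown because they hold the matches; all lie on the minus strand, and capitals mark the match. Asns lies at chr6:7693210-7693339, Ppp1r15a at chr7:45526269-45526398 and Atf3 at chr1:191183334-191183463, where the core is on the strand opposite to the gene.
Asns: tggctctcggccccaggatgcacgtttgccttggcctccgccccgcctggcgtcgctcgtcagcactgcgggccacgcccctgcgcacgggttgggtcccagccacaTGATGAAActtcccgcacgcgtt
Ppp1r15a: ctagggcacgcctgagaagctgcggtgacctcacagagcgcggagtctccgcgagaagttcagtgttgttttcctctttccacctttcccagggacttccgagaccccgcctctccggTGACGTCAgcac
Atf3: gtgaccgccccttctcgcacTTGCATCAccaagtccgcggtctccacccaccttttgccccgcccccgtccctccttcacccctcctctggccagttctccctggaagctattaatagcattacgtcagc

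Among the targets, Trib3 was called with the transgene on in both lines. Trib3 encodes a pseudokinase that ATF4 and CHOP induce and that in turn dampens ATF4 activity. Probe set 1426065_a_at read 104.1, 91.6 and 82.4 in Z-on, 26, 41.4 and 53.8 in Z-off, 59.4, 93.6 and 87.6 in M-on, 15.1, 22.3 and 23.6 in M-off, and 50.8, 39.3 and 101.7 in WT. On arrays lay above off arrays within each line, M-off was the lowest group, and the WT arrays overlapped with Z-on and with Z-off. It rose by 0.97 in Z (SE 0.26, adjusted p = 0.00974) and by 1.39 in M (SE 0.26, adjusted p = 0.000668), a 2.63-fold change of signal plus 16 in M. Probe set 1456225_x_at read 64.5, 60.8 and 48 in Z-on, 13.9, 28.4 and 57.4 in Z-off, 40.6, 59.7 and 64.3 in M-on, 12.9, 19.7 and 10.9 in M-off, and 26.2, 38.5 and 55 in WT. It rose in M by 1.21 (SE 0.28, adjusted p = 0.00295), whereas in Z the array Z-off 3 overlapped with Z-on and the change of 0.67 did not pass (adjusted p = 0.0738).

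Ppp1r15a encodes GADD34, the regulatory subunit that brings protein phosphatase 1 to eIF2 and so restores translation. It read 109.5, 92.7 and 148.8 in Z-on, 53.8, 66.7 and 88.9 in Z-off, 84.6, 110 and 127.4 in M-on, 81.4, 62.8 and 73.1 in M-off, and 68.6, 63 and 50.4 in WT. Both on groups lay above both their off group and WT, with no overlap. It rose by 0.63 in Z (SE 0.20, adjusted p = 0.0218), and the change in M was 0.47 (SE 0.20, adjusted p = 0.0625). Atf3, an early stress-induced repressor and activator, read 19.8, 9.7 and 20.5 in Z-on, 18.3, 14.4 and 18 in Z-off, 8.1, 24.3 and 9.2 in M-on, 13.3, 15.8 and 19.9 in M-off, and 24, 5.5 and 19.2 in WT. All of these lie near the added constant, all groups overlapped, and the on-off changes were -0.03 (95% interval -0.54 to 0.49) in Z and -0.15 (-0.67 to 0.36) in M.

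Asns encodes asparagine synthetase, the classical amino acid response gene of ATF4. Probe set 1451095_at read 52.5, 48.8 and 71.8 in Z-on, 127.2, 74.7 and 10.7 in Z-off, 86.5, 69.2 and 86.3 in M-on, 19.7, 9.5 and 7.4 in M-off, and 30.6, 16.6 and 31.3 in WT. It rose by 1.80 with M on (SE 0.43, 95% interval 0.87 to 2.72, adjusted p = 0.00392), from a mean of 12.2 to 80.7. In Z the change was 0.06 (-0.87 to 0.98), because the arrays Z-off 1 and 2 were high and Z-off 3 low. Probe set 1433966_x_at read 81.9, 40.4 and 2.5 in Z-off and at most 16.2 on every other array, with 1.7, 0.7 and 1 in Z-on, and fell by 1.45 with Z on (SE 0.44, adjusted p = 0.0196). The same 2 Z-off arrays stood apart in genes of the exocrine pancreas, a tissue that also expresses Asns strongly. The 4 measured markers (Cpa1, Cela2a, Cpb1 and Prss2) summed to 927.2 on Z-off 1 and 186.8 on Z-off 2, against 29.2 to 97.4 on the other 13 arrays, and Cpa1 read 174.5 and 28.1 there against 0.4 to 5.2 elsewhere. Without both arrays each Asns result changed: 1451095_at was then higher in Z-on by 1.45 (adjusted p = 0.0083), while 1433966_x_at gave -0.11 (adjusted p = 0.859). That fit rests on a lone Z-off array, assumed to vary like the other groups.

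**Figure D2:**
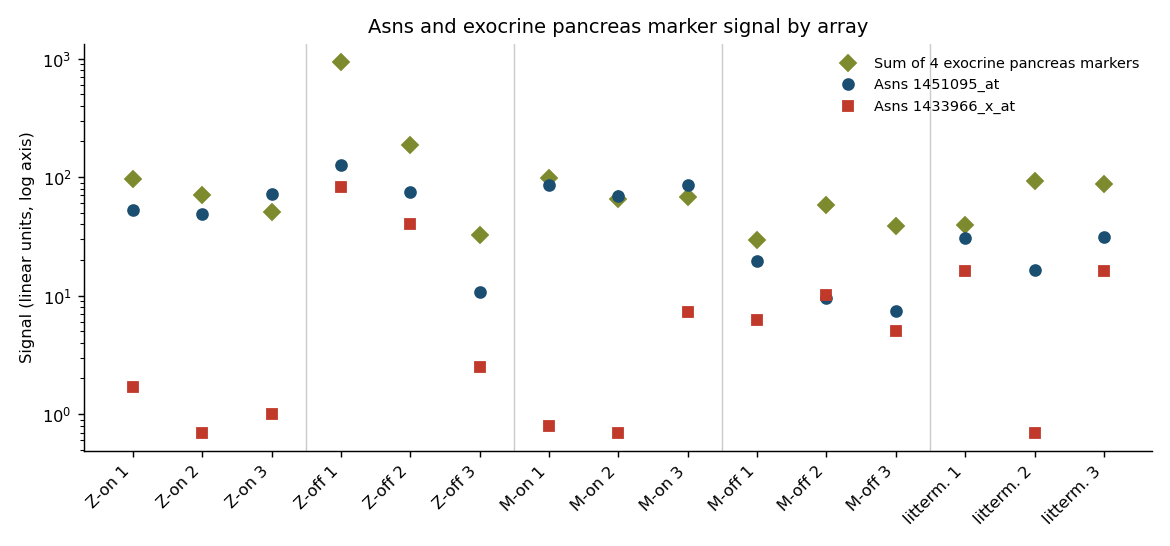
Signal of both Asns probe sets and the summed signal of 4 exocrine pancreas markers on each array (litterm., WT littermates), on a logarithmic y axis, with vertical lines between groups. The marker sum is highest on Z-off 1 and 2 (927.2 and 186.8), the arrays on which both Asns probe sets are high within Z-off.

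Counted over probe sets, the share of members called was near or below that of the whole array. In Z-on against Z-off, 3 of 21 member probe sets were higher (Ern1, Trib3 and Ppp1r15a) and 2 lower (Xbp1 and Asns), where 27.9% of all 22626 probe sets were called higher and 8.14% lower. In M-on against M-off, 6 were higher (Ern1, 2 of Xbp1, 2 of Trib3 and Asns) and 1 lower (Ddit3), against a background of 33.2% higher and 13.4% lower. The median log2 change of the members was 0.10 in both lines, beside 0.21 for all probe sets in Z and 0.23 in M. Relative to the median of all probe sets, rises were smaller and falls larger. Ern1 1450176_at then gave 0.55 in Z and 0.56 in M, Trib3 1426065_a_at 0.77 and 1.17, and Ppp1r15a 0.43 in Z. Xbp1 1420011_s_at gave -0.65 in Z and Ddit3 -1.13 in M. After quantile normalization the shift of all probe sets was about 0 and the higher share of calls went from 77.4% to 51.2% in Z and from 71.3% to 51.8% in M. The increases of Ern1 1450176_at were then 0.23 in Z (adjusted p = 0.447) and 0.30 in M (adjusted p = 0.278), that of Trib3 1426065_a_at in Z was 0.62 (adjusted p = 0.13), and that of Ppp1r15a in Z was 0.38 (adjusted p = 0.219), so these 4 calls did not hold. Also not called then were Xbp1 1420011_s_at in Z (-0.32, adjusted p = 0.128), Trib3 1456225_x_at in M (0.73, adjusted p = 0.0654) and Xbp1 1420012_at in M (0.38, adjusted p = 0.11), while Xbp1 1420886_a_at was called in Z (0.66, adjusted p = 0.0109), and Atf3 (-0.60, adjusted p = 0.0484) and Eif2ak3 1430371_x_at (-0.47, adjusted p = 0.0186) were called lower in M. Ddit3, Asns 1451095_at and Trib3 1426065_a_at in M were called under every alternative tried. Single arrays mattered in Z: without Z-off 1 only 1 of the 5 calls was made, without Z-on 3 it was 3, and without both Z-off 1 and 2 only Asns 1451095_at was called. In M, 7 were also called without M-on 1 and 2, though Xbp1 1420886_a_at was then not among them (0.56, adjusted p = 0.0913) and Ern1 1421240_at was (0.91, adjusted p = 0.0242).

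**Figure D3:**
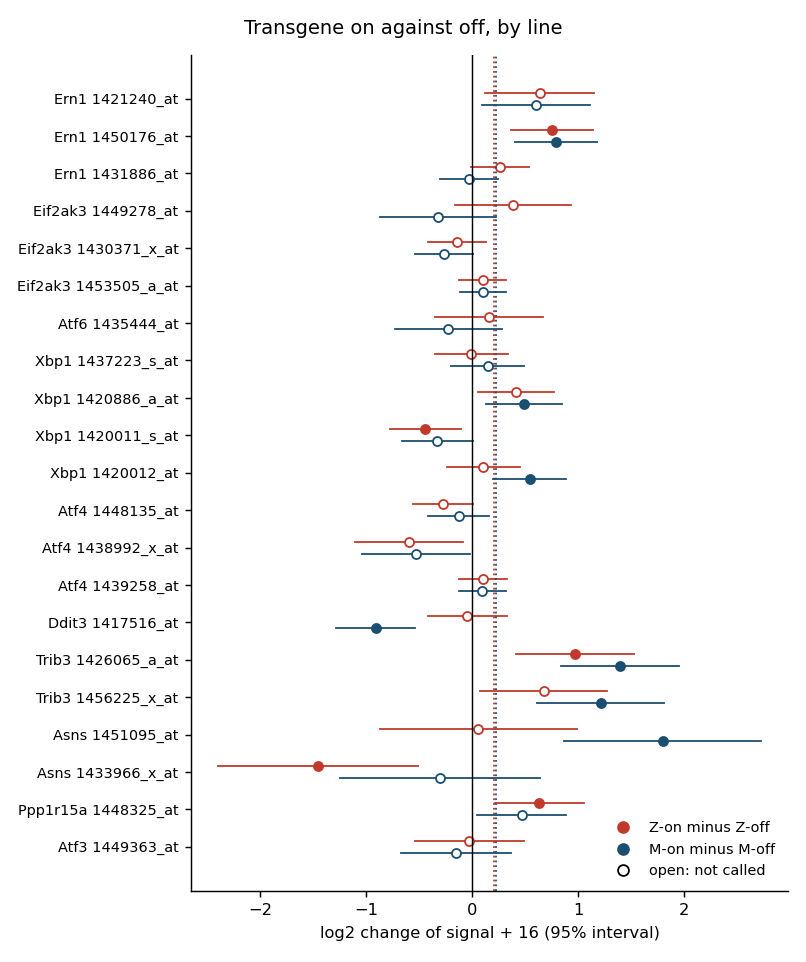
Change of each member probe set with the transgene on, in Z (red) and M (blue), as log2 of signal plus 16 with 95% intervals; filled points were called at an adjusted p under 0.05 and dotted lines mark the median of all probe sets (0.21 in Z, 0.23 in M). Trib3 and Ern1 1450176_at lie right of 0 in both lines, and Ddit3 lies left of 0 in M (-0.91) but near 0 in Z (-0.04).

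Livers with the mutant Z protein were compared with livers with the M protein to ask what differed with the form of the protein. No member probe set was called by limma in Z-on minus M-on, where 3.36% of all probe sets were higher and 1.11% lower, and the smallest adjusted p was 0.202. At an unadjusted p under 0.05 there was 1, Xbp1 1420011_s_at, with a log2 change of -0.37 (95% interval -0.71 to -0.04). The intervals show what size of difference remained possible. They ran from -0.28 to 0.46 for Ddit3, -0.36 to 0.74 for Trib3 1426065_a_at, -0.32 to 0.52 for Ppp1r15a, -0.30 to 0.48 for Ern1 1450176_at and -1.33 to 0.53 for Asns 1451095_at. No member was called without M-on 1 and 2 either. That fit has a lone M-on array and called more of all probe sets than the main fit, so the shares above are not its background. In the main fit, 0 members were also called by limma in the test of whether the on-off change differed between lines. There 2 had an unadjusted p under 0.05 (Ddit3 and Asns 1451095_at, the latter with -1.74, SE 0.61 and an adjusted p of 0.219), and of all probe sets 0.181% were higher and 0.159% lower. Without M-on 1 and 2 more of all probe sets were called in that test as well. Without Z-off 3, Asns was called in that test. Between the silenced lines, Z-off minus M-off, 0 members were called, 5 had an unadjusted p under 0.05, and 0.0486% of all probe sets were called in each direction. Those 5 were Ddit3, whose Z-off arrays all lay below its M-off arrays (-0.77, SE 0.17, adjusted p = 0.114), both probe sets of Trib3 (0.61 and 0.60) and both of Asns (1.34 and 1.02). Without Z-off 3, which had the lowest Asns of its group, both Asns probe sets were called.

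Against nontransgenic littermates, which carry neither transgene nor drug, the on groups differed mainly in Ppp1r15a and Xbp1, and the off groups in Ern1, Xbp1 and Trib3. All 4 comparisons share the same 3 WT arrays. In Z-on, 1 member was higher and 1 lower, beside 7.5% and 4.79% of all probe sets. Ppp1r15a rose by 0.78 (SE 0.20, adjusted p = 0.0193) and Xbp1 1420011_s_at fell by 0.63 (SE 0.16, adjusted p = 0.0182). In M-on, 2 were higher and 0 lower by limma, beside 13.2% and 9.78%, and 4 had an unadjusted p under 0.05. These 2 were Ppp1r15a, by 0.68 (SE 0.20, adjusted p = 0.0233), and Xbp1 1420886_a_at, by 0.66 (SE 0.17, adjusted p = 0.0123). With M on, Asns 1451095_at was 1.21 above littermates with all arrays apart, but the adjusted p was 0.0579. In Z-off, 2 members were lower and 0 higher by limma, beside 16.9% and 4.52%, and 4 had an unadjusted p under 0.05. They were Ern1 1450176_at (-0.68, adjusted p = 0.0174) and Xbp1 1420012_at (-0.58, adjusted p = 0.0211). In M-off, 4 were lower and 0 higher, beside 18.8% and 4.54%, with 8 at an unadjusted p under 0.05. Xbp1 1420012_at fell by 0.88 (SE 0.16, adjusted p = 0.00207) and Ern1 1450176_at fell by 0.80 (SE 0.18, adjusted p = 0.00668). The Trib3 probe sets gave -1.07 (SE 0.26, adjusted p = 0.0099) and -0.85 (SE 0.28, adjusted p = 0.0404). Trib3 1426065_a_at thus stood at 0.52 from littermates in Z-on, 0.33 in M-on and -0.46 in Z-off, none of these called, and at -1.07 in M-off.

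With quantile normalization the higher share of calls went from 61.0% to 50.9% in Z-on, from 57.5% to 50.5% in M-on, from 21.1% to 48.8% in Z-off and from 19.4% to 47.8% in M-off. Ppp1r15a then missed the threshold (0.68, adjusted p = 0.0649 in Z-on; 0.61, adjusted p = 0.0588 in M-on), as did Ern1 and Trib3 in M-off and both calls in Z-off. Xbp1 stayed called by 1420012_at in M-off (adjusted p = 0.0107), 1420011_s_at in Z-on (adjusted p = 0.0211) and 1420886_a_at in M-on (adjusted p = 0.00545). Newly called were Xbp1 1420886_a_at (0.60, adjusted p = 0.0356) and 1420012_at (-0.62, adjusted p = 0.0435) in Z-on, and Ddit3 (-0.66, adjusted p = 0.0252) and Asns 1451095_at (1.23, adjusted p = 0.0472) in M-on. Leaving out 1 array changed the number of calls in Z-on from 2 to 1 for Z-on 1, Z-on 2, Z-on 3 or WT 2, that in M-on from 2 to 1 for M-on 2, M-on 3 or WT 3, and that in Z-off from 2 to 1 for Z-off 1, Z-off 2 or WT 2, to 3 for WT 3 and to 4 for Z-off 3. Without Z-off 2 both original Z-off calls were lost and the 1 call was Atf4 1438992_x_at. Without both M-on 1 and 2, 1 of the 2 M-on calls was made, and without both Z-off 1 and 2, 0 of the Z-off calls.

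**Figure D4:**
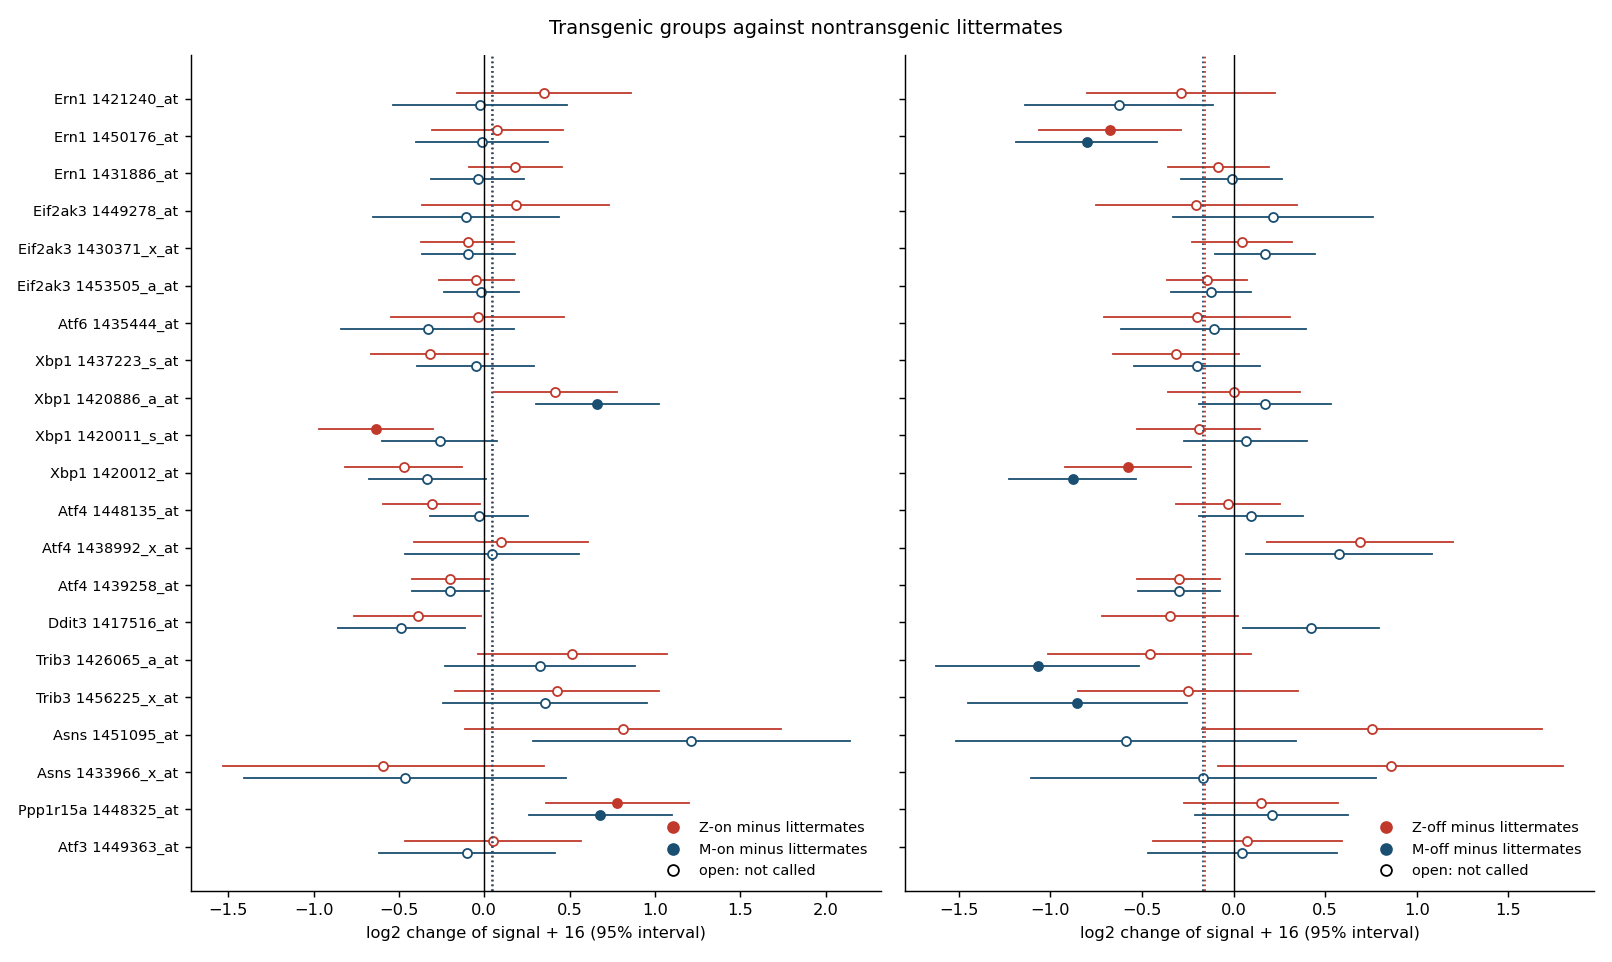
Change of each member probe set against WT littermates, with the transgene on (left) and off (right), Z red and M blue, as log2 of signal plus 16 with 95% intervals; filled points were called at an adjusted p under 0.05 and dotted lines mark the median of all probe sets. Ppp1r15a lies above littermates in both on groups (0.78 and 0.68), and Trib3 1426065_a_at lies at -1.07 in M-off.

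The wider pathway was read from 5 lists of 106 other genes, of which 96 were measured, each by its probe set with the highest mean signal. With the transgene on, 27 were higher and 16 lower in Z, beside 27.9% and 8.14% of all probe sets, and 29 higher and 24 lower in M, beside 33.2% and 13.4%. The same shares are the background for each list below. Without Z-off 1 and 2 the calls in Z fell to 11 higher and 2 lower, with 1 Z-off array left, and without M-on 1 and 2 those in M were 28 and 18. Of 31 measured ATF4 and CHOP targets 14 were higher and 4 lower in Z (median log2 change 0.33, beside 0.21 for all probe sets), and 14 higher and 2 lower in M (0.59, beside 0.23). Slc7a1, a cationic amino acid transporter, rose from 4.83 ± 2.91 to 41.2 ± 3.20 in Z (SD, n = 3) and from 5.40 ± 2.88 to 42.1 ± 2.29 in M, which is 1.46 and 1.45 on the log2 scale (adjusted p = 2.46e-05 and 1.22e-05 by limma). Bcl2l11, which encodes the pro-apoptotic protein BIM, rose by 1.59 in Z (adjusted p = 4.02e-05) and 1.86 in M (adjusted p = 6.93e-06). After quantile normalization 19 of the 96 genes were higher and 16 lower in Z, beside 2988 and 2843 of all 22626 probe sets. In M 23 were then higher and 23 lower, beside 4397 and 4089.

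Of 19 measured XBP1 and ATF6 targets, which are mainly ER chaperones and degradation factors, 3 were higher and 5 lower in Z (median 0.02) and 1 higher and 9 lower in M (median -0.52), where all probe sets had 27.9% higher and 8.14% lower in Z, and 33.2% and 13.4% in M. Pdia4, an ER disulphide isomerase, fell by 0.92 in Z (adjusted p = 0.00159) and fell by 1.41 in M (adjusted p = 4.64e-05). Hsp90b1, the ER chaperone GRP94, fell by 0.99 in Z (adjusted p = 0.00215) and fell by 1.69 in M (adjusted p = 3.07e-05), there from a mean signal of 2808 ± 602 to 860 ± 197 (SD, n = 3). Herpud1, an ER degradation factor that is itself a stress target, was higher with Z on than off by 1.09 (adjusted p = 0.00124). The change in M was -0.35 (adjusted p = 0.182). Its mean signal with Z on (2590) was near that of littermates (2700), whereas Z-off was low (1208). Z-off was called lower than WT by limma (-1.15, adjusted p = 0.00237). The source of the low Z-off signal was not tested. Against littermates Sdf2l1, an ER chaperone cofactor, fell by 2.17 in Z-on (adjusted p = 0.00548) and fell by 2.14 in M-on (adjusted p = 0.00348). Both values rest on the same 3 WT arrays, which varied widely. The mean signal was 623 ± 389 in WT, beside 105 ± 24.9 in Z-on and 106 ± 13.5 in M-on (SD, n = 3).

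In the list of eIF2 kinases, phosphatases and complexes, 1 of 16 was higher and 2 lower in Z, and 3 higher and 5 lower in M, beside 27.9% higher and 8.14% lower of all probe sets in Z and 33.2% and 13.4% in M. Eif2b1, a subunit of the exchange factor that recharges eIF2, rose by 0.65 in Z (adjusted p = 0.00181) and by 0.60 in M (adjusted p = 0.00189). Ppp1cb, a catalytic subunit of the phosphatase that GADD34 directs, fell by 0.79 in Z (adjusted p = 0.00303) and fell by 1.77 in M (adjusted p = 7.43e-06). Dnajc3, the ER co-chaperone P58IPK that restrains PERK, fell by 2.52 in M (SE 0.44, adjusted p = 0.000412), with -0.61 in Z (adjusted p = 0.298). Its M-on arrays varied widely, with a mean signal of 250 ± 249 beside 1137 ± 112 in M-off (SD, n = 3). Among IRE1 and ATF6 partners, 7 of 19 were higher and 3 lower in Z, and 8 higher and 5 lower in M. Creb3l1, an ATF6-like membrane-bound factor, rose by 1.09 in Z (adjusted p = 0.000687) and 1.56 in M (adjusted p = 3.21e-05), and Mapk8, the JNK1 gene, rose by 0.85 in Z (adjusted p = 0.00215) and by 1.12 in M (adjusted p = 0.000196). Creb3l1 means were 51.2 in Z-on, 61.6 in M-on and 53.2 in WT, beside 15.6 in Z-off and 10.7 in M-off. Both off groups were called lower than WT by limma (-1.11, adjusted p = 0.00177 in Z-off and -1.37, adjusted p = 0.000434 in M-off). Sec63, a translocon cofactor, fell by 0.64 in Z (adjusted p = 0.00242) and fell by 1.36 in M (adjusted p = 8.05e-06). Among 11 aminoacyl-tRNA synthetases, 2 were higher and 2 lower in Z and 3 higher and 3 lower in M. Tars fell by 0.92 in Z (adjusted p = 0.00355) and fell by 1.15 in M (adjusted p = 0.000543), Gars rose by 0.38 in Z (adjusted p = 0.042) and 0.54 in M (adjusted p = 0.00512), and Yars rose by 1.01 in M (adjusted p = 0.000724), with 0.38 in Z (adjusted p = 0.131). Against WT, both off groups were called higher for Tars (0.78 in Z-off and 0.79 in M-off) and lower for Yars (-0.92 and -0.97). Tars means were 296 in Z-on, 259.5 in M-on and 328 in WT, beside 580 in Z-off and 577 in M-off. Yars means were 177 in Z-on, 279 in M-on and 264.5 in WT, beside 132 in Z-off and 129 in M-off.

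**Figure D5:**
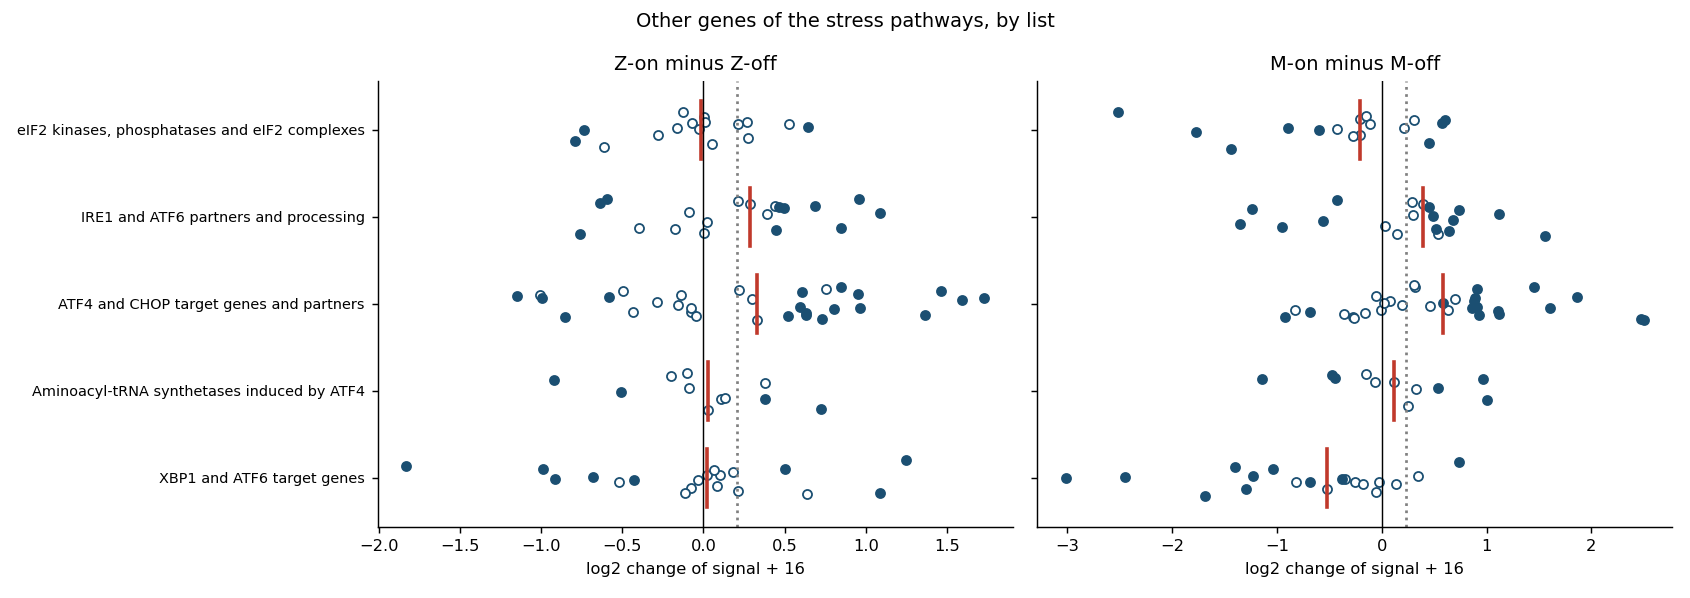
Change with the transgene on for the 96 measured genes of the 5 pathway lists, as log2 of signal plus 16, in Z (left) and M (right), whose x axes differ in range. Filled points were called at an adjusted p under 0.05, red bars are list medians and the dotted line is the median of all probe sets; the XBP1 and ATF6 targets have a median of 0.02 in Z and -0.52 in M.

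Between Z-on and M-on, 5 of the 96 pathway genes were higher and 1 lower, beside 3.36% and 1.11% of all probe sets. Slc38a2, an amino acid transporter, was higher in Z-on by 1.37 (adjusted p = 0.0136), Ppp1cb by 1.03 (adjusted p = 0.0103) and Sec63 by 0.64 (adjusted p = 0.0242), and Ppp1ca was lower (-0.69, adjusted p = 0.0233). None of these 6 was called when only the Z-on and M-on arrays were fitted. Calls depended on the setting: 10 were higher and 5 lower with array weights, 8 and 4 without M-on 1, and 0 without M-on 2. In the other contrasts the counts were 7 higher and 7 lower for Z-on against WT (7.5% and 4.79% of all probe sets) and 12 and 14 for M-on (13.2% and 9.78%). They were 6 and 12 for Z-off (4.52% and 16.9%) and 8 and 12 for M-off (4.54% and 18.8%). In the main fit Vldlr, a lipoprotein receptor induced by ATF4, was the 1 pathway gene called between the silenced lines and in the test of the difference between lines. In the latter, array weights gave 8 higher and 5 lower pathway genes, omission of M-on 1 gave 8 and 3, and omission of M-on 2 gave 0. The Vldlr probe set 1434465_x_at read 54.1, 67.1 and 75.1 in Z-on, 220.6, 180.4 and 76.6 in Z-off, 257.7, 154.6 and 46.7 in M-on, 9.7, 9.6 and 9.8 in M-off, and 22.2, 54.5 and 46.7 in WT. The 3 Z-off arrays lay above the 3 M-off arrays, by 2.66 on the log2 scale (SE 0.44, adjusted p = 0.0372), and the on-off change was lower in Z than in M (difference -3.48, SE 0.63, adjusted p = 0.0415). Its high M-on arrays were those with high Xist, and its high Z-off arrays were again those with pancreas markers. Without Z-off 1 and 2 neither Vldlr call was made. Of its 3 other probe sets, none was called in either contrast. The Vldlr call between the silenced lines was also lost with a constant of 64, quantile normalization or the replicate block. It was lost too when any single M-off array, Z-off 1 or Z-off 2 was left out. The call in the difference between lines was lost in the same omissions, and when any single Z-on array or M-on 2 was. A constant of 1 or 64, the compared groups only or the replicate block also removed it.

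For each gene, the probe sets of other genes with the most similar pattern were found as those with the smallest root mean square difference in centred log2 signal over the 15 arrays, a measure that shares the arrays and their scaling. The genes most like Asns were Cel and Cela3b (0.39 and 0.44), both digestive enzymes of the exocrine pancreas, followed by Abhd2 (0.47). Cel read 164.5, 29.8 and 9.9 in Z-off and Cela3b 159.3, 33.4 and 26.3. On the 13 arrays other than Z-off 1 and 2 they read 5.4 to 66.7 and 13.9 to 116.1. Both were also higher in M-on than in M-off, with means of 60.5 and 12.7 for Cel and 98.9 and 14.5 for Cela3b. Asns 1451095_at had means of 80.7 and 12.2 in these groups. Of the 4 pancreas markers summed above, 0 were called between M-on and M-off by limma. Their sum was 64.8 to 97.4 in M-on and 29.2 to 58.1 in M-off, without overlap. Group means in M-on and M-off were 49.7 and 16.9 for Prss2 and 23.0 and 18.5 for Cela2a. In the other direction they were 1.5 and 1.8 for Cpa1 and 2.3 and 4.9 for Cpb1. Whether the M change of Asns shares a source with these genes was not tested. Ppp1r15a was most like Hnf4a (0.14), the hepatocyte nuclear receptor, then Derl1 (0.18) and Slfn4 (0.18). Trib3 was most like Slain1, Med25 and Arf3 (0.24 each), and Ddit3 most like Sfpq, Bet1l and Cdk2ap2 (0.20 each). Ern1 1421240_at was nearest to Riok1 (0.18), Xbp1 1437223_s_at to Trib2 (0.13), Atf4 1448135_at to Ppp1r14b (0.11), Eif2ak3 1449278_at to Zc3h7a (0.20), Atf6 to Itga4 (0.16) and Atf3 to Slc35a2 (0.15). For comparison, the SD of the gene itself over the arrays was 0.84 for Asns, 0.66 for Trib3, 0.39 for Ddit3 and 0.38 for Ppp1r15a.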

How the data were processed

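The authors deposited 1 table of linear probe set intensity values for 15 arrays. RMA, with no version, is the only tool named in the submitters' processing notes, but the values are not in log2 units and include 0, so the scaling is not known. Groups and replicate numbers came from the labels. Of 22690 probe sets 64 array controls were left out and 22626 were fitted; 20380 had 1 gene, 691 several and 1555 none in the probe table, and the 10 member symbols all matched RefSeq. limma 3.58.1 (R 4.3.3; lmFit, eBayes) was run on log2 of intensity plus 16, with 1 mean per group over all 15 arrays (10 residual and 3.81 prior degrees of freedom). The test was two-sided, with Benjamini-Hochberg adjustment over all probe sets in each of 9 contrasts, and a value under 0.05 was called. Adding 16 understates the change of dim probe sets. P-values rest on 3 arrays per group. The fit was tested on simulated data. Named genes were every member probe set and, per list and contrast, up to 2 called genes with the smallest adjusted p. Members and lists were chosen with earlier results of these data known. Alternatives were other constants, quantile normalization, a filter on dim probe sets, the compared groups only, an intensity trend, array weights, a replicate block, 1 probe set per gene and leaving out arrays.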

Additional observations from a re-analysis of the deposited data

How the results depend on the processing

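Of 189 member values (21 probe sets in 9 contrasts), 22 were called, 4 of these under every alternative tried, 29 others were called under 1 or more alternatives, and 0 changed sign among called values. Quantile normalization changed the number of called members from 5 to 2 in Z-on minus Z-off, from 2 to 0 in Z-off minus WT and from 4 to 1 in M-off minus WT. With array weights 9 were called in Z-on minus Z-off and 1 in Z-off minus M-off. Fitting only the groups compared gave 0 in Z-on minus WT and 1 in M-on minus WT, a newly called Asns 1451095_at, with neither original call kept. A constant of 1, and an intensity trend with robust spread, each gave 4 in Z-off minus WT, and the filter on dim probe sets gave 4 in M-on minus WT. Without M-on 1 and 2, chosen for their Xist signal, 1 was called in M-on minus WT. Without Z-off 1 and 2, an alternative chosen after seeing the data, 1 was called in Z-on minus Z-off and 0 in Z-off minus WT. Leaving out each array in turn gave 1 to 6 calls in Z-on minus Z-off, 5 to 9 in M-on minus M-off, 1 to 2 in Z-on minus WT and in M-on minus WT, 0 to 2 in Z-off minus M-off, 1 to 4 in Z-off minus WT, 3 to 6 in M-off minus WT and 0 to 1 in the difference of the on-off changes. The cause of these changes was not tested. Replicate numbers did not pair the arrays: of 30 pairs with the same number 0 correlated above 0.1 (median r -0.01), and with the replicate block 4 members were called in Z-on minus Z-off and 7 in M-on minus M-off. Probe sets below the added constant (Ern1 1431886_at, Atf4 1439258_at, Eif2ak3 1430371_x_at and 1453505_a_at) can show little change.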
